A study of Gallus gallus with 2 samples.

Results

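Collagens are the main structural proteins of the extracellular matrix, and 36 of the 26656 rows in the deposited gene tables carried a collagen symbol (COL, a type number, A and a chain number, with nothing after). These 36 rows were taken by symbol alone, although earlier results of these data were known when the set was chosen. They were read in the only 2 libraries whose columns could be matched to labelled samples. Both libraries came from chicken cells labelled as spermatogenic stem cells. Testes were taken from eggs incubated for 18.5 days, broken down by collagenase (30 minutes) followed by trypsin, and the cells were grown in DMEM with 10% FBS. The Blank library is labelled as having had no treatment. The shLSD1 library came from cells transfected with a vector built to interfere with LSD1, an enzyme that removes methyl groups from histone H3 lysine 4. No empty-vector library was analysed here, so transfection and interference cannot be told apart. Each library was made from 1 µg of total RNA. With 1 library per group there was no replicate check, no test was possible, and each difference compares these libraries and not the treatments.

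A collagen molecule is made of alpha chains wound into a triple helix, and each chain has its own gene. Fibrillar collagens form the banded fibrils of connective tissue, FACIT collagens sit on the surface of those fibrils, and type IV chains form the sheet of basement membranes. Type VI chains build beaded filaments around cells. In the testis, collagens lie in the basement membrane around the seminiferous cords and in the interstitial and peritubular tissue.

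The tables held 8731455 counted reads for Blank and 8245826 for shLSD1. KDM1A, the gene of LSD1, was listed at 0 in both libraries, as was the assembled model (a transcript locus with no gene name, listed beside the annotated genes) that covers it, so the interference could not be checked at the RNA level. Among the 16 listed germ cell markers, all matched to a row, the gene rows summed to 27.8 CPM (counts scaled to a common library total) in Blank and 31.5 CPM in shLSD1, with NANOG and THY1 at 0. Most of these reads were from GFRA1, a receptor of spermatogonia, with 149 reads in Blank against 192 in shLSD1 (log2 ratio 0.45, 0.13 to 0.77). DDX4, the germ cell RNA helicase also called CVH, had 23 reads in Blank against 11 in shLSD1 (-0.95, -2.17 to 0.11). Of the 16 markers, 4 had at least 20 reads in their own rows, with a median log2 ratio of -0.30. Of these 4, 2 were at least 1.5-fold lower, against 6.38% of all rows with as many reads. They were DDX4 and TDRD9 (17 reads in Blank against 7 in shLSD1, -1.14, -2.71 to 0.15), and both intervals held 0. None of the 4 was at least 1.5-fold higher, against 7.04% of all such rows. With the assembled models that cover 3 of the markers added, the sum was 217 CPM in Blank and 194 CPM in shLSD1, of which ITGA6, an integrin chain that many other cells also make, was the largest part with 1336 and 1084 model reads. Fibroblast and peritubular markers summed to 774 CPM in Blank and 668 CPM in shLSD1 in gene rows, with 5 of the 11 matched genes at 0 (DCN, PDGFRA, PDGFRB, FAP and THY1), and to 2248 and 1878 CPM with models added. Sertoli cell markers (8 matched, of which AMH, WT1 and GATA4 were at 0) summed to 215 CPM in Blank and 268 CPM in shLSD1 in gene rows, and to 586 and 634 CPM with models. CLDN11 supplied most of the gene-row reads (1255 in Blank against 1544 in shLSD1). The largest model was that of GATA4, with 2475 reads in Blank against 2248 in shLSD1. In such bulk libraries, fewer cells of a type and less RNA per cell cannot be told apart.

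Of the 36 collagen genes, 10 had at least 20 reads over both libraries, 13 had between 1 and 19, and 13 were at 0 in both. A count of 0 allows up to 3 reads, which is 0.344 CPM in Blank and 0.364 CPM in shLSD1. The 13 genes at 0 were COL1A2, COL3A1, COL4A1, COL4A2, COL4A3, COL4A6, COL6A1, COL8A1, COL9A2, COL16A1, COL18A1, COL21A1 and COL23A1. The list includes the chains of the most widespread fibrils and basement membranes, yet a 0 in these rows could not be read as absence. The tables also hold 9548 assembled models. A model on the same strand covered at least 90% of the gene for 21 of the 36 collagen genes, and all 13 genes at 0 were among them. None of the 15 collagen genes without such a model was at 0.

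The same division was seen outside the collagens. Of 6128 protein-coding genes covered by such a model, 66.8% were at 0 in both libraries, against 14.6% of the 9380 without one. For 17 of the 21 covered collagen genes the model held more reads than the gene, and 10 of the 13 genes at 0 had a model with reads. The models of COL4A6, COL8A1 and COL9A2 were themselves at 0. A collagen domain was annotated in 20 of the 21 models, the exception being that of COL23A1. How reads lying in both a gene and a model were assigned is not given in the sources used here, and its part in the zeros was not tested. Values are therefore given for the gene row first and for the model separately.

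**Figure D1:**
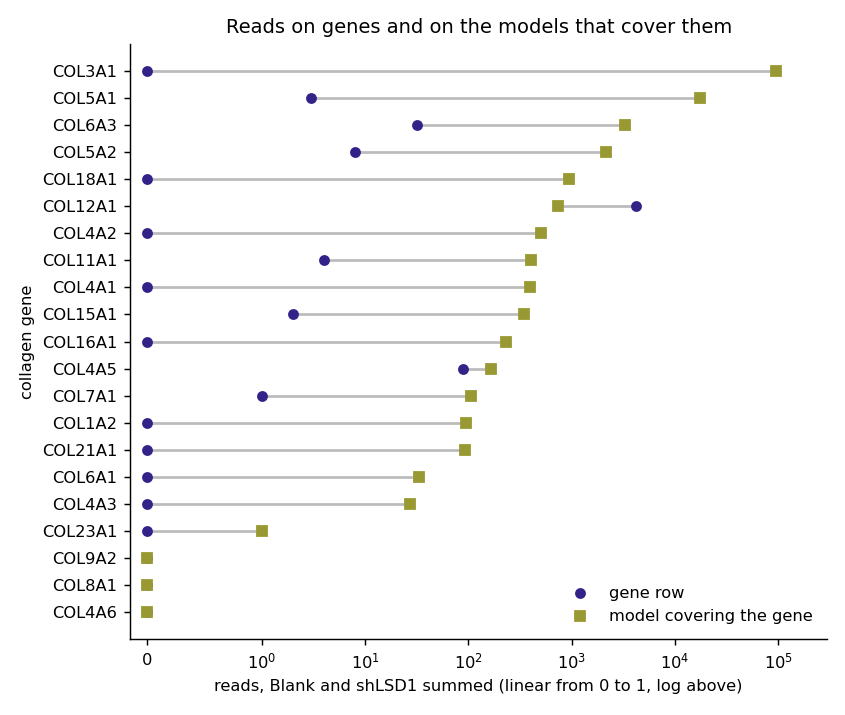
Reads of both libraries summed (horizontal axis, linear from 0 to 1 and logarithmic above) for the 21 collagen genes that a same-strand assembled model covers over at least 90% of their length; circles are gene rows and squares are models. The model lies to the right of the gene in 17 of the 21, and COL12A1 is the gene where the order is the other way round with reads in both.

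Levels of the collagen genes are set in order as FPKM, which scales the counts by library total and by gene length. Among gene rows, COL6A2 stood far above the others at 398 FPKM in Blank and 463 FPKM in shLSD1. COL2A1 followed at 67.7 FPKM in Blank and 68.0 FPKM in shLSD1. Below these, COL9A3, COL8A2, COL12A1 and COL24A1 lay between 18.9 and 28.0 FPKM in Blank and between 16.1 and 30.3 FPKM in shLSD1. Their order was not fixed: in Blank the counting interval of COL9A3 (26.0 to 30.1 FPKM) overlapped that of COL8A2 (23.7 to 28.4 FPKM), and in shLSD1 COL8A2 was the higher of the pair. COL4A4 was at 1.55 FPKM in Blank and 1.75 FPKM in shLSD1, and COL4A5, COL17A1 and COL6A3 were below 1 FPKM in each library.

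**Figure D2:**
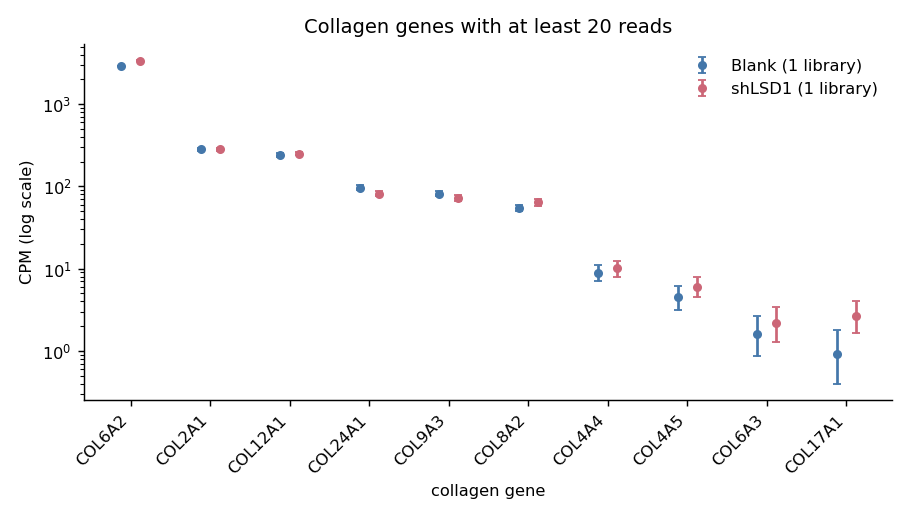
CPM on a log scale (vertical axis) of the 10 collagen genes with at least 20 reads, in the Blank library and the shLSD1 library; bars are 95% Poisson intervals of the count, which cover counting error only. COL6A2 lies highest in both libraries, and the bars of the libraries are clear of each other for COL6A2 but overlap widely for COL4A4, COL4A5 and COL6A3.

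Ratios between the libraries were taken on counts per total, as log2 of shLSD1 over Blank, with an exact 95% interval that covers counting error only. Of the 10 collagen genes with at least 20 reads, 1 (COL17A1) was at least 1.5-fold higher in shLSD1, against a background of 7.04% of the 12081 rows (genes and assembled models) with as many reads. None of the 10 was at least 1.5-fold lower, against a background of 6.38%, and in either direction the background was 13.4%. The interval left out 0 in 5 of the 10, against 28.3% of all rows. Of these, 3 lay above 0 (COL6A2, COL8A2 and COL17A1), where the background was 12.9%, and 2 lay below (COL24A1 and COL9A3), where it was 15.4%. The median log2 ratio of the 10 was 0.19, beside -0.01 over all 12081 rows, and the 10 ranged from -0.24 to 1.49. The median was 0.03 over the 6 members with at least 200 reads. Of these 6, 4 had an interval that left out 0, against 39.3% of all rows at that depth, and none was 1.5-fold apart, against 2.98%.

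Among the 17 covering models with at least 20 reads, none was 1.5-fold apart, against the 13.4% of all rows. Their intervals lay above 0 in 3 (COL3A1, COL5A1 and COL6A3, background 12.9%), below 0 in 2 (COL4A1 and COL15A1, background 15.4%) and held 0 in 12. Their median log2 ratio was -0.06, with a range of -0.51 to 0.51. When the reads of gene and model were added, 24 collagen loci had at least 20 reads, and their median was 0.02.

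**Figure D3:**
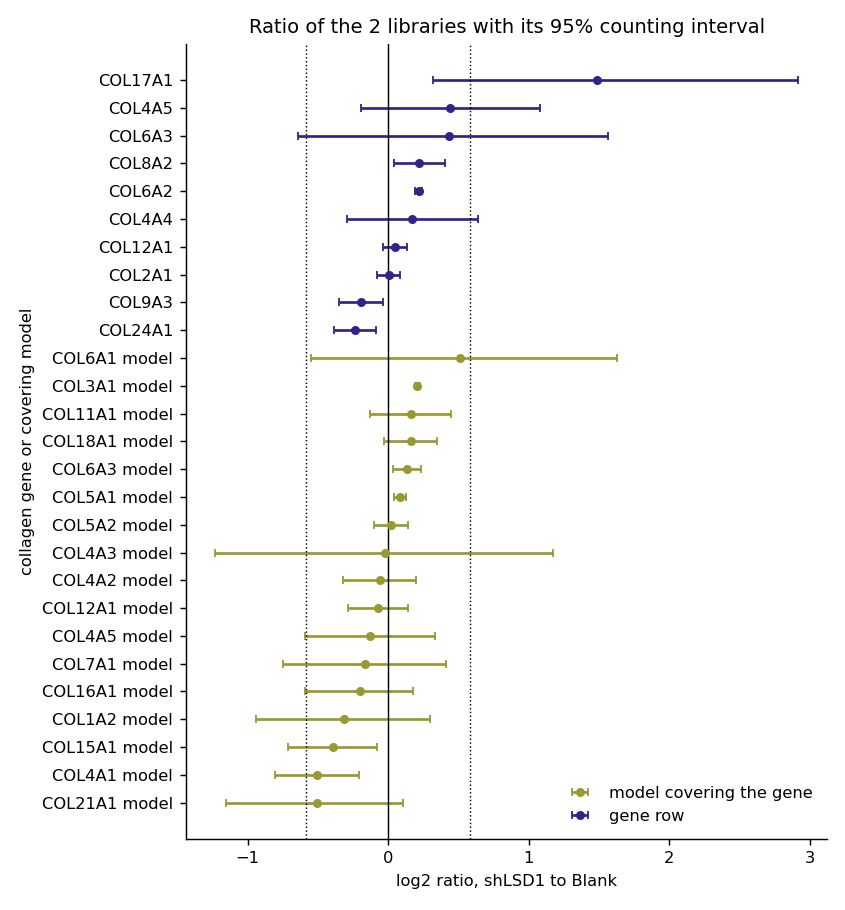
Log2 ratio of shLSD1 to Blank (horizontal axis) with its 95% counting interval for the 10 collagen gene rows and the 17 covering models with at least 20 reads; dotted lines mark a 1.5-fold difference in each direction. COL17A1 is the single point outside the dotted lines, at 1.49, and the COL4A1 model lies lower than 0 with its whole interval, from -0.80 to -0.21.

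The type VI chains, which assemble into beaded filaments close to the cell surface, held the largest collagen count among gene rows. COL6A2 (ENSGALG00000006126, chromosome 7 from 6781274 to 6810349, plus strand) had 25384 reads in Blank against 27856 in shLSD1. Its log2 ratio was 0.22 (95% interval 0.19 to 0.24), a 1.16-fold higher value in shLSD1 that was well under the 1.5-fold limit. COL6A3, the long partner chain of the type VI molecule (chromosome 7 from 4752831 to 4805577), had 14 reads in Blank against 18 in shLSD1, with a log2 ratio of 0.43 (-0.64 to 1.56). The model over COL6A3 is 659 bases longer than the gene and held 1598 reads in Blank against 1659 in shLSD1, with a log2 ratio of 0.14 (0.04 to 0.24). So the COL6A3 locus was also on the higher side in shLSD1 by a small amount once the model was read.

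COL6A1, the remaining type VI chain, was at 0, and its model held 14 reads in Blank against 19 in shLSD1. At 0.310 FPKM in Blank and 0.447 FPKM in shLSD1, that model lay far below the COL6A2 gene and the COL6A3 model (17.0 FPKM in Blank and 18.7 FPKM in shLSD1), although all 3 chains are needed for the classical type VI molecule. The assignment of reads shared by a gene and its model is not given, so the low COL6A1 count cannot be read as a low level. The ratio of COL6A3 to COL6A2 reads, which does not depend on library scaling, was 0.0635 in Blank and 0.0602 in shLSD1 with models added. Its log2 change was -0.08 (-0.18 to 0.03), so a change of balance between these chains was not detectable at this depth. COL6A1 and COL6A2 are neighbours on the same strand, 20262 bases apart.

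Of the 7 fibrillar genes, only COL2A1 and COL24A1 had at least 20 reads in their own rows. COL2A1, the main collagen of cartilage fibrils (ENSGALG00000013587, on an unplaced scaffold), had 2473 reads in Blank against 2341 in shLSD1. Its log2 ratio was 0.00 (-0.08 to 0.09), so the libraries differed by less than counting error. COL24A1, a minor fibrillar chain described in developing bone and cornea of the mouse (ENSGALG00000006864, chromosome 8 from 14987158 to 15097242, plus strand), had 839 reads in Blank against 673 in shLSD1. It was 1.18-fold lower in shLSD1, with a log2 ratio of -0.24 (-0.38 to -0.09). Neither gene had a covering model.

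Markers of chondrocytes, the cells best known for COL2A1, summed to 51.3 CPM in Blank and 60.4 CPM in shLSD1. Of the 7 listed genes, all were matched, 1 was at 0 (MATN1, a cartilage matrilin) and 6 had at least 20 reads. Of these 6, 2 had an interval above 0 (background 12.9%), MATN3 (96 reads in Blank against 123 in shLSD1) and CNMD (5 against 17). None had one below 0 (background 15.4%). CNMD was at least 1.5-fold higher (background 7.04%) and ACAN at least 1.5-fold lower (background 6.38%). ACAN, the core protein of the large cartilage proteoglycan, had 26 reads in Blank against 14 in shLSD1, and its interval (-1.86 to 0.18) held 0. The median log2 ratio of the 6 was 0.36, beside 0.00 for COL2A1.

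The other 5 fibrillar genes were read almost entirely through models. The model over COL3A1, the chain of type III collagen in soft and stretchable tissues, held 45913 reads in Blank against 50093 in shLSD1. This was 935 FPKM in Blank and 1083 FPKM in shLSD1, the highest level of any collagen row or covering model, and its log2 ratio was 0.21 (0.19 to 0.23). The COL3A1 gene (chromosome 7 from 571200 to 611944) was itself at 0, and its model is 2808 bases longer. The gene makes up 80.8% of the span of that model, so the model's reads can include some from outside the gene.

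COL5A1 and COL5A2 encode chains of type V collagen, which starts the assembly of type I fibrils. The COL5A1 model had 8749 reads in Blank against 8764 in shLSD1, with a log2 ratio of 0.09 (0.04 to 0.13). The COL5A2 model had 1108 reads in Blank against 1061 in shLSD1, with a log2 ratio of 0.02 (-0.10 to 0.14). In the gene rows, COL5A1 had 1 and 2 reads and COL5A2 had 5 and 3 reads, in Blank and shLSD1 respectively. With models added, there were 0.127 COL5A2 reads for each COL5A1 read in Blank and 0.121 in shLSD1, a log2 change of -0.07 (-0.20 to 0.06).

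The model over COL11A1, a chain of the type XI collagen that shares fibrils with type II, held 197 reads in Blank against 208 in shLSD1 (log2 ratio 0.16, -0.13 to 0.45). COL11A1 itself had 0 reads in Blank against 4 in shLSD1. The COL1A2 model, over the alpha 2 chain of type I collagen, held only 54 reads in Blank against 41 in shLSD1 (log2 ratio -0.31, -0.94 to 0.30). At 1.10 FPKM in Blank and 0.883 FPKM in shLSD1 it lay far below the COL3A1 model, and models on the opposite strand at COL1A2 held 38 reads in Blank against 34 in shLSD1. As for COL6A1, the low COL1A2 count cannot be read as a low level. Whether the counting used strand is not given in the sources used here. No row was named COL1A1, so the other chain of type I collagen was not analysed here.

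Summed over the 7 fibrillar gene rows, there were 3318 reads in Blank against 3023 in shLSD1, a log2 ratio of -0.05 (-0.12 to 0.02). With the models added the sums were 59339 and 63190, and the log2 ratio turned to 0.17 (0.16 to 0.19). The sign of the fibrillar sum therefore depends on whether the models are read, and COL3A1 makes up most of the larger sums.

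FACIT collagens link fibrils to their surroundings, and 2 of the 9 FACIT genes had at least 20 reads. COL12A1, which lies along type I fibrils (ENSGALG00000015908, chromosome 3 from 80212182 to 80312375, plus strand), had 2102 reads in Blank against 2053 in shLSD1. Its log2 ratio was 0.05 (-0.04 to 0.14), and its model, with 389 reads in Blank against 349 in shLSD1, had a log2 ratio of -0.07 (-0.29 to 0.14). Neither interval left out 0. COL9A3, a chain of the type IX collagen that decorates type II fibrils in cartilage (ENSGALG00000005628, chromosome 20 from 8689083 to 8720874, plus strand), had 714 reads in Blank against 590 in shLSD1. It was 1.14-fold lower in shLSD1, with a log2 ratio of -0.19 (-0.35 to -0.03).

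The remaining FACIT genes were at or near 0 in their rows. COL9A1, another type IX chain, had 1 read in Blank against 2 in shLSD1, and COL9A2 was at 0 with its model, so the 3 type IX chains were counted very unequally. COL20A1 had 6 reads in Blank against 5 in shLSD1, COL22A1 had 5 and 0, and COL19A1 had 0 and 3, and each interval held 0. Models over COL16A1 (128 reads in Blank, 105 in shLSD1) and COL21A1 (56 in Blank, 37 in shLSD1) had log2 ratios of -0.20 (-0.59 to 0.18) and -0.51 (-1.16 to 0.11). The FACIT sum of gene rows was 2828 reads in Blank against 2653 in shLSD1, with a log2 ratio of -0.01 (-0.09 to 0.07).

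Among the short-chain collagens, which form hexagonal networks, only COL8A2 had at least 20 reads. COL8A2, known from the basement membrane behind the cornea (ENSGALG00000002298, chromosome 23 from 4083731 to 4089688, plus strand), had 478 reads in Blank against 527 in shLSD1. It was 1.17-fold higher in shLSD1, with a log2 ratio of 0.22 (0.04 to 0.40). Its partner chain COL8A1 was at 0 with its model. COL10A1, the collagen of hypertrophic cartilage, had 6 reads in Blank against 5 in shLSD1 and lies within NT5DC1, a gene on the opposite strand with 386 reads in Blank against 378 in shLSD1.

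Few reads were counted on the basement membrane chains in either library, in gene rows or in models. For the genes covered by a model, a low count cannot be read as a low level, because the assignment of shared reads is not given. COL4A4 (chromosome 9 from 8788722 to 8851270) and COL4A5 (chromosome 4 from 13861296 to 13934946), known as partners in the kidney glomerular membrane, are both on the minus strand. COL4A4 had 78 reads in Blank against 83 in shLSD1, with a log2 ratio of 0.17 (-0.29 to 0.64). COL4A5 had 39 reads in Blank against 50 in shLSD1, with a log2 ratio of 0.44 (-0.19 to 1.08), while its model had 88 and 76 reads and a log2 ratio of -0.13 (-0.59 to 0.33). No difference was detectable for either gene at this depth.

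COL4A1 and COL4A2, the chains of nearly all basement membranes, were at 0 and read through models. The COL4A1 model had 239 reads in Blank against 159 in shLSD1, a log2 ratio of -0.50 (-0.80 to -0.21). The COL4A2 model had 263 reads in Blank against 238 in shLSD1, a log2 ratio of -0.06 (-0.32 to 0.20). These genes lie head to head on chromosome 1 with 374 bases between them. The ratio of COL4A2 to COL4A1 reads was 1.10 in Blank and 1.497 in shLSD1, a log2 change of 0.44 (0.05 to 0.84), so within these libraries the balance shifted away from COL4A1 by more than counting error.

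Other type IV genes lie in the same arrangement. COL4A4 and COL4A3 stand head to head with 22445 bases between them, and COL4A5 and COL4A6 with 6279 bases. The COL4A3 model had 14 reads in Blank against 13 in shLSD1, and COL4A6 and its model were at 0. Summed, the type IV gene rows had 117 reads in Blank against 133 in shLSD1 (log2 ratio 0.27, -0.10 to 0.64), and with models 721 and 619 (log2 ratio -0.14, -0.29 to 0.02). Both intervals held 0.

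The multiplexins COL15A1 and COL18A1 belong to basement membrane zones, and COL18A1 is the source of endostatin. The COL18A1 model had 456 reads in Blank against 481 in shLSD1, with a log2 ratio of 0.16 (-0.03 to 0.35). The COL15A1 model had 199 reads in Blank against 143 in shLSD1, with a log2 ratio of -0.39 (-0.71 to -0.08), and the gene makes up 66.3% of that model, so reads from elsewhere in it are included. With gene rows added, the ratio of COL18A1 to COL15A1 reads was 2.28 in Blank and 3.34 in shLSD1, a log2 change of 0.55 (0.18 to 0.92). Of the 21 pairs of chains listed, 14 had enough reads for a ratio once models were added, and the interval left out 0 in 2 of them, this pair and COL4A2 to COL4A1. No share over other pairs of rows is given beside this count. For single rows with at least 20 reads, the interval left out 0 in 28.3%.

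Transmembrane collagens are anchored in the cell membrane. COL17A1, the collagen of hemidesmosomes that fixes epithelial cells to the basement membrane (ENSGALG00000008323, chromosome 6 from 23670969 to 23706526, minus strand), had 8 reads in Blank against 22 in shLSD1. It was 2.80-fold higher in shLSD1, with a log2 ratio of 1.49 (0.32 to 2.92), and it was the only collagen gene with at least 20 reads past the 1.5-fold limit. The level stayed low, at 0.170 FPKM in Blank and 0.496 FPKM in shLSD1. COL13A1 had 2 reads in each library, COL25A1 had 2 in Blank and 1 in shLSD1, and COL23A1 was at 0.

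COL7A1, which forms the anchoring fibrils beneath epithelia, had 0 reads in Blank against 1 in shLSD1, and its model had 57 and 48 reads with a log2 ratio of -0.16 (-0.75 to 0.41). COL28A1 had 3 reads in Blank against 4 in shLSD1. For all 13 collagen genes with 1 to 19 reads, the interval of the ratio held 0.

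**Figure D4:**
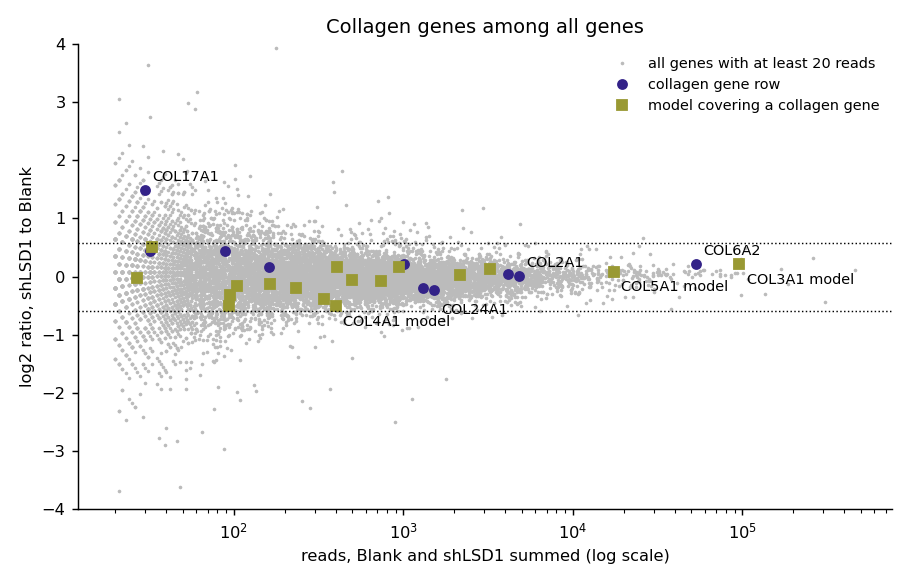
Log2 ratio of shLSD1 to Blank (vertical axis, shown from -4 to 4, with 5 outside) against the reads of both libraries (horizontal axis, log scale) for all 12081 genes and models with at least 20 reads; dark circles are collagen gene rows, squares are models covering a collagen gene, and dotted lines mark a 1.5-fold difference. The collagens lie within the cloud of genes of like depth, with COL6A2 and the COL3A1 model at the deep end between 0.20 and 0.25.

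All 36 gene rows together took 32161 reads in Blank, 0.368% of the library (exact 95% interval 0.364 to 0.372), and 34246 in shLSD1, 0.415% (0.411 to 0.420). The log2 ratio of these shares was 0.17 (0.15 to 0.20). COL6A2 supplied 78.9% of the collagen reads in Blank and 81.3% in shLSD1. Without COL6A2 the other 35 genes had 6777 reads in Blank against 6390 in shLSD1, a log2 ratio of 0.00 (-0.05 to 0.05). Among gene rows, the higher share in shLSD1 therefore rested on a single gene.

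With the covering models added, the collagen share was 1.05% in Blank against 1.19% in shLSD1 (log2 ratio 0.17, 0.16 to 0.19). The COL3A1 locus supplied 50.1% of these reads in Blank and 51.3% in shLSD1. Without it the log2 ratio was 0.14 (0.12 to 0.16), but COL6A2 was the larger part of what remained. Without both COL3A1 and COL6A2, a setting added after seeing the data, there were 20387 reads in Blank against 19791 in shLSD1, and the log2 ratio was 0.04 (0.01 to 0.07). The fibroblast markers did not move together. LUM, a collagen-binding proteoglycan, had 6098 reads in Blank against 4710 in shLSD1 (log2 ratio -0.29, -0.35 to -0.23), and the model over DCN, a related proteoglycan, had 9908 against 7199 (-0.38, -0.42 to -0.33). On the other side, TCF21, a transcription factor of mesenchymal cells, had 447 reads in Blank against 543 in shLSD1 (0.36, 0.18 to 0.55), the matrix gene FN1 had 191 against 253 (0.49, 0.21 to 0.77), and the PDGFRB model had 2302 against 2377 (0.13, 0.05 to 0.21). With models added, 9 of the 11 matched markers had at least 20 reads. Their intervals lay above 0 in 3 (background 12.9%) and below 0 in 4 (background 15.4%). Besides LUM and DCN, the lower ones were POSTN (log2 ratio -0.86, -1.09 to -0.63) and MYH11 (-0.62, -1.14 to -0.12), each with its model. POSTN and MYH11 were at least 1.5-fold lower (background 6.38%), and 0 of the 9 were at least 1.5-fold higher (background 7.04%). The part of cell makeup in the collagen shares was not tested.

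Collagen chains are modified, folded and trimmed by enzymes and chaperones. A list of 50 genes held these together with cross-linking enzymes, collagen receptors and genes of folding and secretion such as HSPA5 and SEC13. Of the 50, 39 were matched to a row, 12 were at 0 and 21 had at least 20 reads. Among these 21, MIA3, which helps load procollagen for export from the endoplasmic reticulum, was at least 1.5-fold higher (background 7.04%), with 13 reads in Blank, 29 in shLSD1 and a log2 ratio of 1.21 (0.25 to 2.31). None was at least 1.5-fold lower (background 6.38%). The lowest, TLL1, was just under that limit at 1.49-fold lower. It had 217 reads in Blank against 137 in shLSD1 (log2 ratio -0.58, -0.90 to -0.27). The intervals lay above 0 in 4 (background 12.9%) and below 0 in 9 (background 15.4%), and the median log2 ratio of the 21 was -0.08. Many of the 21 had far more than 200 reads, and an interval leaves out 0 more often at depth. It did so in 39.3% of all rows with at least 200 reads, against 28.3% of those with at least 20. With covering models added, 34 of the genes had at least 20 reads, and their median was -0.01. Their intervals lay above 0 in 8 (background 12.9%) and below 0 in 10 (background 15.4%), with the same limit of depth.

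Prolyl hydroxylation makes the triple helix stable at body temperature. P4HA1, a catalytic subunit of collagen prolyl 4-hydroxylase, had 10345 reads in Blank against 9364 in shLSD1 (log2 ratio -0.06, -0.10 to -0.02). P4HB, its partner subunit, had 11339 reads in Blank against 11547 in shLSD1 (log2 ratio 0.11, 0.07 to 0.15). P4HA1 and P4HB thus lay on opposite sides of 0 by small amounts. P4HA3, another catalytic subunit, had 2735 reads in Blank against 3032 in shLSD1 (log2 ratio 0.23, 0.16 to 0.31), the same side as P4HB. P4HA2 had 8 reads in Blank against 6 in shLSD1, and its interval held 0. The model over P4HA2 had 5 reads in Blank against 16 in shLSD1. Gene and model together had a log2 ratio of 0.82 (-0.21 to 1.95), past the 1.5-fold limit on the higher side, with an interval that held 0. LOX, the oxidase that starts collagen cross-linking, had 12747 reads in Blank against 15684 in shLSD1, and at 1.30-fold higher in shLSD1 (log2 ratio 0.38, 0.35 to 0.42) it stayed under the 1.5-fold limit. SERPINH1, the collagen chaperone HSP47, was at 0, and its model had 256 reads in Blank against 205 in shLSD1 (log2 ratio -0.24, -0.51 to 0.03). BMP1, a procollagen protease, and DDR2, a collagen receptor, had no matched row.

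A further collagen gene is spelled col14A1 in the tables, in lower case, and so fell outside the rule. The row of col14A1 was at 0, and its model had 62 reads in Blank against 101 in shLSD1, a log2 ratio of 0.78 (0.32 to 1.27). A row described as COL27A1 but given no symbol was also at 0, with 291 reads in Blank against 282 in shLSD1 on its model (log2 ratio 0.04, -0.20 to 0.28). Both were chosen for description after their values were seen.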

How the data were processed

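RNA-seq of 1 Blank and 1 shLSD1 library was read from tables of the whole series. Per the labels, libraries were made with the Illumina TruSeq RNA kit. The deposited gene table gives raw read counts per gene, and the authors' FPKM table gives the same reads scaled by library total and gene length, beside a gene length in bases. The submitters' processing notes name Bowtie 0.12.2 and the mouse builds mm8 and mm9, although the rows are chicken Ensembl genes. The aligner settings, the counter, its use of strand and the chicken build of the coordinates are not given in the sources used here, so reads from overlapping or antisense genes may not be separable. The authors' comparison table (adjusted counts, log2 fold changes, p-values) was not used. A further 4 value columns matched no sample and were not used.

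The members and gene lists were chosen with earlier results of these data known. Ratios were counts per total with a prior count of 0.5, and 95% intervals were exact binomial (Clopper-Pearson) intervals of the split of reads between libraries. Intervals and the floor of 3 reads cover counting error only. A gene was described as apart past 1.5-fold with at least 20 reads. Values were given for every member with at least 20 reads, reads for every member with any, and, of the processing genes, for SERPINH1, P4HA1, P4HB, LOX, BMP1, DDR2 and those 1.5-fold apart. Other genes are named for context. Listed symbols were matched, also by synonym, through a RefSeq table of GRCg7b used for names only. A model covered a gene if it overlapped at least 90% of the gene's span on the same strand. The code was tested on simulated data. Alternatives were edgeR 4.0.16 TMM and upper-quartile factors and DESeq2 1.42.0 size factors (R 4.3.3), totals without the 20 most abundant genes or without collagens, other read minimums, folds, priors and pseudocounts, and counting with or without models. Intervals were computed with scipy 1.17.1 under Python 3.11.15, tables with pandas 2.3.3 and numpy 2.4.6, and plots with matplotlib 3.10.9.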

Additional observations from a re-analysis of the deposited data

Results flagged for a closer look

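Outside the 36 collagen genes of the set, 16 assembled models carried a collagen triple-helix domain and overlapped none of those genes. They include the models of col14A1 and of the row described as COL27A1, and 13 of the 16 had at least 20 reads. Of the 13, 2 were at least 1.5-fold higher (background 7.04%) and 1 was at least 1.5-fold lower (background 6.38%). The interval lay above 0 in 5 of the 13 (background 12.9%) and below 0 in 2 (background 15.4%). The lower ones were a model of 2318 bases with only that domain (74 reads in Blank against 38 in shLSD1, log2 ratio -0.87, -1.48 to -0.30) and a model of 809 bases on an unplaced scaffold that also has a C1q domain (2883 against 2347, -0.21, -0.29 to -0.14). The 5 higher ones include the col14A1 model, at a log2 ratio of 0.78. Of the 5, 3 lie on short unplaced scaffolds and carry only that domain. The longest, of 590 bases, had 8775 reads in Blank against 10480 in shLSD1, a log2 ratio of 0.34 (0.30 to 0.38), and its 1692 FPKM in Blank was above the 935 FPKM of the COL3A1 model. The second, of 394 bases, had 3194 and 3925 reads and a log2 ratio of 0.38 (0.31 to 0.45). The last, of 388 bases, had 124 and 190 reads and a log2 ratio of 0.70 (0.36 to 1.04), which is past the 1.5-fold limit. These 3 were flagged because they hold collagen signal in rows that no comparison above used, and the files give them no gene name.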

How the results depend on the processing

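Of the 10 collagen genes, 1 was 1.5-fold apart. That number was 8 with no read minimum, where every member with a read is counted and not only those 10. No share over all rows is given for that setting. The number was 0 with at least 200 or at least 1000 reads, and 0 on deposited FPKM with a pseudocount of 1. It was 3 at the lower fold limit tried (COL17A1, COL4A5 and COL6A3). The intervals of COL4A5 (-0.19 to 1.08) and COL6A3 (-0.64 to 1.56) held 0. For that limit, too, no share over all rows is given, so the 3 cannot be set against a background. Intervals that left out 0 numbered 5 of these 10. Adding model reads also brought more loci past 20 reads. The number was then 8 with models of 90% reciprocal overlap (background 28.3%), counted over more loci than those 10 genes. With all covering models, a setting chosen after seeing the data, it was 10 of 24 loci, against 28.3% of all rows. Many of those loci had at least 200 reads, and at that depth the interval left out 0 in 39.3% of all rows. The collagen-processing genes 1.5-fold apart went from 1 to 2 with DESeq2 size factors, with no read minimum or with covering models added. They went to 0 with at least 200 or 1000 reads, or with FPKM and a pseudocount of 1. They also went to 0 with only genes free of same-strand models. At the lower fold limit they numbered 5, again with no share over all rows beside that count. The log2 ratio of the fibrillar sum was -0.05, and became 0.047 with reciprocal models, 0.17 with covering models and -0.24 with only genes free of models. That last setting left out every gene with any same-strand overlapping model, COL2A1 among them, so its fibrillar value is that of COL24A1 alone. The log2 ratio of the FACIT sum went from -0.01 to -0.19 with only genes free of models, where COL12A1 was left out and COL9A3 held most of the reads. The log2 ratio of the collagen share without COL6A2 was -0.0023. The COL6A3 ratio of 0.43 became 0.14 with its model, and its interval then left out 0. The 5 other scalings moved every log2 ratio by at most 0.026. The causes were not tested. Depth limits the low genes: with 14 and 18 reads, the COL6A3 interval ran from -0.64 to 1.56. No paired analysis was possible because Blank and shLSD1 are single libraries, and for the same reason neither could be left out.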
